A study of Mus musculus with 12 samples.

Results

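A set of 9 genes that stood apart in the *Trpm3*-KO lens, rather than in the lenses with mutant TRPM3, was followed across the 4 genotypes of a P7 (age 7 days) lens RNA-seq experiment. The genes are *Misp*, *Wdfy1*, *C1qtnf1*, *Mettl23*, *Tmem267*, *4833420G17Rik*, *Serpina3h*, *Serpina3i* and *Aox4*. They were picked by symbol for a large difference between *Trpm3*-KO and wild-type libraries and for lying outside chromosome 19, where *Trpm3* is located, so their *Trpm3*-KO values are a description and carry no test. They are 9 of 55487 gene identifiers in the counts table and 9 of the 8984 genes tested.

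Lens RNA was sequenced in 12 libraries, 3 for each of 4 genotypes: wild-type, *Trpm3* knockout (*Trpm3*-KO, or KO), heterozygous mutant (*Trpm3*-I/M, or I/M) and homozygous mutant (*Trpm3*-M/M, or M/M). The KO allele was made by homologous recombination with an IRES-LacZ-neo cassette, and that line was re-derived from frozen embryos. The I/M and M/M mice carry 1 and 2 copies of the p.I65M substitution, made by CRISPR/Cas-9 editing. Lenses of both sexes, 4 male and 4 female, were described as pooled in each library, all lines were kept on the C57BL6/J (B6J) background, and the sources used here do not say whether wild-type mice were littermates of the KO mice. The total counted on genes was between 56162169 and 82090198 per library.

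*Trpm3* encodes a calcium-permeable cation channel of the transient receptor potential family, which is strongly expressed in the lens epithelium. The lens is an avascular tissue of epithelial cells and the fiber cells that differentiate from them, and crystallins make up most of its protein. The 9 genes have no common pathway by textbook knowledge. They include a spindle and actin protein, an endosomal adaptor, a secreted C1q/TNF protein, a methyltransferase, a membrane protein, 2 members of a protease inhibitor cluster and an aldehyde oxidase.

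*Trpm3* itself fell in KO lenses, from 268.5 ± 17.3 CPM (a gene's count scaled to a common library total, with TMM factors that set the bulk of genes equal between libraries; SD, n = 3) to 95.3 ± 5.02 CPM, with no overlap between libraries (log2 fold change −1.49, SE 0.06, Benjamini–Hochberg adjusted p = 3.36e-09 by edgeR's quasi-likelihood test). In older KO lenses the paper reports fusion transcripts of *Trpm3* with the cassette, while TRPM3 staining was absent from the epithelium. Against wild-type, *Trpm3* was higher in I/M (0.53, SE 0.06, adjusted p = 1.62e-05 by the same test) and in M/M (0.82, SE 0.06, adjusted p = 5.84e-08). Lens fiber markers summed to 219400 to 242000 CPM in wild-type and 211400 to 230600 CPM in KO libraries. The lens epithelium list was lower in KO with no overlap, at 407.7 to 425.1 CPM against 436.0 to 473.4 CPM in wild-type, and so was the pericyte and fibroblast list, at 65.04 to 71.1 against 73.2 to 89.3 CPM. None of the tested markers of the lens epithelium (8), lens fibers (13), endothelium (4), pericytes and fibroblasts (4) or red blood cells (1) passed both thresholds (FC ≥ 2 and FDR ≤ 0.05) in KO lenses. The photoreceptor, other neural retina, pigmented cell, cornea, macrophage and hepatocyte lists had 0 genes above the filter on low counts and were not tested. The 6 endothelial markers summed to 5.74 to 8.07 CPM in wild-type and 5.94 to 6.51 CPM in KO, against 16.96 to 23.1 CPM in I/M and 42.5 to 49.5 CPM in M/M libraries. *Krt12*, *Krt14* and *Kera* of the cornea list, *Thy1*, *Rpe65* and *Lum* were at 0 counts in all wild-type and KO libraries, but other genes of their lists had counts. The photoreceptor list summed to 0.69 to 0.91 CPM in wild-type and 0.53 to 0.89 CPM in KO, and the cornea list to 0.24 to 0.44 and 0.30 to 0.52 CPM. The other neural retina list summed to 3.01 to 3.69 and 2.95 to 3.65 CPM, and the pigmented cell list to 3.09 to 3.75 and 2.86 to 3.14 CPM. I/M replicate 3 went against its description as lenses of both sexes, because *Xist* was at 0.0721 CPM there and at 45.8 to 304.9 CPM in the other 11 libraries. The value of 45.8 CPM was that of wild-type replicate 2, against 210.3 and 162.3 CPM in wild-type replicates 1 and 3. M/M replicate 1 stood apart for *Serpina3h* and *Serpina3i*, as given with their values. In whole lenses, fewer cells that express a gene and less RNA per cell cannot be told apart.

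The sequences that bear on these genes are the nearly identical *Serpina3* copies and the start regions of those genes, higher in KO lenses or absent from them, that had an entry in RefSeq. The coding sequence of *Serpina3i* (1227 bases) and the transcript of *Serpina3h* (1239 bases) had 970 identical bases among 1033 aligned, or 93.9%, and the longest identical run was 113 bases. A read that lies wholly within an identical run cannot be assigned to 1 copy by sequence, while a read that spans a difference can. The share of such reads was not measured, so the split of counts between both genes is uncertain. The first 90 coding bases of *Serpina3i* and the matching bases 81 to 170 of the *Serpina3h* transcript are shown from the GENCODE M21 transcripts, with the 8 differing bases in capitals.
*Serpina3i*: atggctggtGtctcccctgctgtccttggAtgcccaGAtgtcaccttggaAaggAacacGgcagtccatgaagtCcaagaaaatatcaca
*Serpina3h*: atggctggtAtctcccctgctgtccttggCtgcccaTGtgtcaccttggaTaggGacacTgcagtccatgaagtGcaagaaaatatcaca

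Start regions of 300 bases (250 before and 50 after the start) were taken from RefSeq for GRCm38.p6, where 5 of the 9 genes had an entry, and all of these lie on the forward strand. Both strands were searched for TATAAA (the core of a TATA box), CCAAT and GGGCGG (the core of a GC box), and matches are in capitals. Over 32851 such regions, TATAAA was found in 13.6%, CCAAT in 37.4% and GGGCGG in 35.7%, and the median number of CG dinucleotides was 7. A match is a run of letters and no evidence that a factor binds. The *Aox4* region, chr1:58210147-58210446, held TATAAA on the forward strand from base 275, which is after the start, and 13 CG dinucleotides.
*Aox4*: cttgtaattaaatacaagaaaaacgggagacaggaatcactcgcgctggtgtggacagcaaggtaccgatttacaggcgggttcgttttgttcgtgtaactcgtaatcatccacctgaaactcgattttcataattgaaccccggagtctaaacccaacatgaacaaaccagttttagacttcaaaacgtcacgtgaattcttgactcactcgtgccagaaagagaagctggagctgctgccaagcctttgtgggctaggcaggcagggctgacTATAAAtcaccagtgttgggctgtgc
The *4833420G17Rik* region, chr13:119462509-119462808, held GGGCGG on the reverse strand from base 264, also after the start, and 20 CG dinucleotides. Its neighbor *Tmem267* had 2 starts in RefSeq, of which the first, chr13:119487836-119488135, held GGGCGG on the forward strand from base 200 and 22 CG dinucleotides. The second, chr13:119488223-119488522, held 4 GGGCGG matches and 50 CG dinucleotides and is not printed.
*4833420G17Rik*: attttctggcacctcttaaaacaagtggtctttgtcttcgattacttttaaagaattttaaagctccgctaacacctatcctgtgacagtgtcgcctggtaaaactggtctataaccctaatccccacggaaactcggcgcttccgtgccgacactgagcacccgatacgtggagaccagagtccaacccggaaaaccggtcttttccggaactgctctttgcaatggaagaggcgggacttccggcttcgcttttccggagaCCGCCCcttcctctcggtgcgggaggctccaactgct
*Tmem267*: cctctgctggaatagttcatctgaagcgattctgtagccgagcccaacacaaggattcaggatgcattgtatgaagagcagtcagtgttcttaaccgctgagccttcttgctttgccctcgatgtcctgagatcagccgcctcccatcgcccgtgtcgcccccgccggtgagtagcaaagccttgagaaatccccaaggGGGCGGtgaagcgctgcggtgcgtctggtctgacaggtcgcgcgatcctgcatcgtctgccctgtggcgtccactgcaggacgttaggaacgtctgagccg
The *Mettl23* region, chr11:116843265-116843564, held GGGCGG on the reverse strand from base 130, CCAAT from bases 157 and 199 on the reverse strand and from base 196 on the forward strand, the last 2 of which overlap, and 32 CG dinucleotides.
*Mettl23*: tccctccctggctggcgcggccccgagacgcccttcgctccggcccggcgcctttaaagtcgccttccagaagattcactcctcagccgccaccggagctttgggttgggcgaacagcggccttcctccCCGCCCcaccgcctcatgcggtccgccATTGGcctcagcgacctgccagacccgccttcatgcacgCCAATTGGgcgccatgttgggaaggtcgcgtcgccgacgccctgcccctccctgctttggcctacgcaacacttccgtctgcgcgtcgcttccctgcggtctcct
The *Serpina3i* region, chr12:104262872-104263171, held CCAAT on the reverse strand from base 73 and 0 CG dinucleotides.
*Serpina3i*: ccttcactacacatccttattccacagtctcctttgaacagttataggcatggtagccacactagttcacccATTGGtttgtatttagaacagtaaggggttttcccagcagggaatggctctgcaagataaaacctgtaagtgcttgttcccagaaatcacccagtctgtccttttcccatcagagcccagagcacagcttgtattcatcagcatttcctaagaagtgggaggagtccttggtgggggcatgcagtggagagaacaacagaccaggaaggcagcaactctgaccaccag

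All 9 genes differed between KO and wild-type libraries by at least 2-fold at FDR ≤ 0.05, and in each of them the 3 KO libraries did not overlap the 3 wild-type libraries. Among them 4 were higher and 5 lower. Because this contrast chose the genes, nothing is read from these counts, and they stand beside 0.568% of all tested genes past both thresholds (0.234% higher and 0.334% lower) and 23.2% with no overlap. In KO lenses 51 genes passed, 46 of them outside chromosome 19 (18 higher and 28 lower). Several of the others changed by more than some of the 9 genes, among them the pseudogene *Rpl15-ps2* (log2 fold change 7.07) and *Gm36684* (−8.31). *Il3ra*, at 1.14, lay just above *Mettl23*, at 1.12, and was not chosen.

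**Figure D1:**
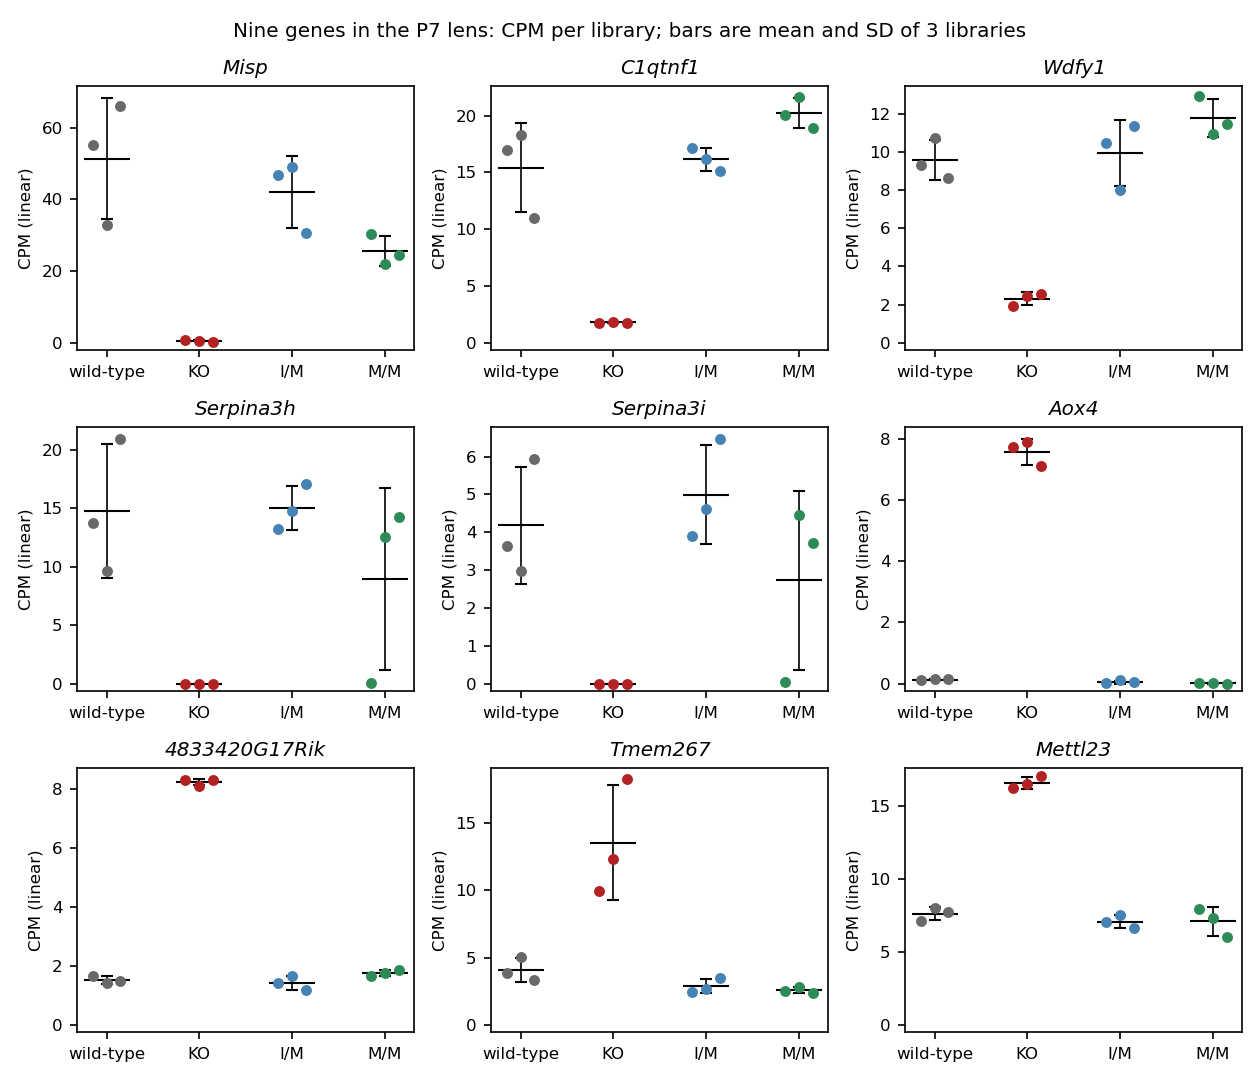
CPM (linear axis) of the 9 genes in each library, with 1 panel per gene, colored points for the 3 libraries of each genotype and black bars for mean and SD. The KO points are separate from all other genotypes in every panel, except that M/M replicate 1 is close to the KO points for *Serpina3h* and *Serpina3i*.

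*Misp* (ENSMUSG00000035852), which encodes an actin-associated protein that positions the mitotic spindle, is a forward-strand gene at chr10:79820989-79830490 (GRCm38). Wild-type libraries held 55.1, 33.0 and 66.0 CPM, and KO libraries held 0.710, 0.615 and 0.338 CPM. I/M libraries held 46.7, 48.9 and 30.6 CPM, and M/M libraries held 30.2, 21.9 and 24.5 CPM. Every KO library was far below every other library, at 92.2-fold below wild-type (log2 fold change −6.53, SE 0.36). I/M overlapped wild-type (−0.29, SE 0.22), and M/M lay below both (−1.01, SE 0.23, against wild-type).

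The gene next to *Misp* on the same strand is *Palm*, which encodes the membrane-associated protein paralemmin and ends 92 bp before *Misp* starts. *Palm* was at 14.5, 61.9 and 0.178 CPM in wild-type and at 126.2, 122.6 and 121.1 CPM in KO libraries, so it was highest where *Misp* was lowest. It was at 15.1, 14.6 and 60 CPM in I/M and at 14.8, 25.3 and 13.3 CPM in M/M libraries. Within wild-type, I/M and M/M alike, the library with the least *Misp* held the most *Palm*, whereas among the KO libraries the one with the least *Misp* also held the least *Palm*. The wild-type spread of *Palm* was wide, and its KO difference did not pass the test (log2 fold change 2.28, SE 0.90, adjusted p = 0.194 by edgeR's quasi-likelihood test). The part of read assignment between both neighboring genes in the *Misp* values was not tested. *Ptbp1*, 23936 bp away on the other side, was at 74.5 ± 1.42 CPM in wild-type and 72.8 ± 1.52 CPM in KO libraries (SD, n = 3).

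**Figure D2:**
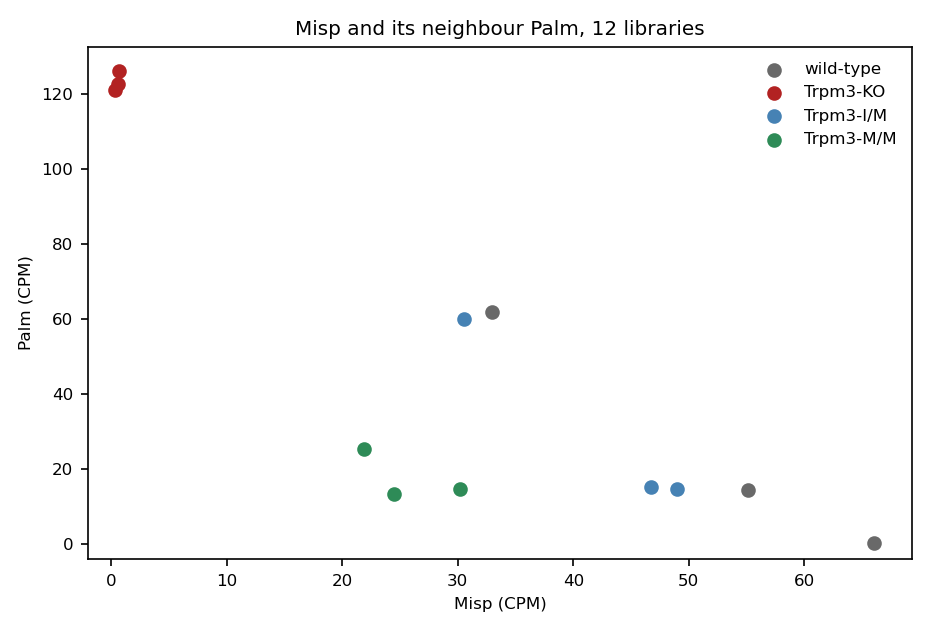
*Misp* (x axis, CPM) and its neighbor *Palm* (y axis, CPM), 1 point per library, colored by genotype. The KO libraries sit at 0.338 to 0.710 CPM of *Misp* and 121.1 to 126.2 CPM of *Palm*, and the wild-type library with 0.178 CPM of *Palm* has the highest *Misp*, 66.0 CPM.

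*Serpina3h* and *Serpina3i* belong to the *Serpina3* cluster of serine protease inhibitor genes on chromosome 12, where the annotation calls *Serpina3h* a transcribed unprocessed pseudogene. *Serpina3h* (ENSMUSG00000041449) spans 104247905 to 104253669 and *Serpina3i* (ENSMUSG00000079014) 104263122 to 104269372, both on the forward strand and 9452 bp apart. *Serpina3h* was at 13.7, 9.62 and 20.9 CPM in wild-type, 13.3, 14.8 and 17.1 CPM in I/M, and 0.0375, 12.6 and 14.3 CPM in M/M libraries. All 3 KO libraries held 0 counts, which allows up to 3 counts each, so that *Serpina3h* was at least 265.6-fold lower than in wild-type. *Serpina3i* was at 3.64, 2.98 and 5.93 CPM in wild-type, 3.91, 4.62 and 6.46 CPM in I/M, and 0.0375, 4.46 and 3.71 CPM in M/M libraries. It also held 0 counts in the KO libraries and was at least 75.3-fold lower there.

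M/M replicate 1 thus resembled the KO libraries for this pair only among the 9 genes. It held 3 counts of each gene, whereas replicates 2 and 3 held 1158 and 1265 counts of *Serpina3h* and 411 and 329 of *Serpina3i*. Scaled for depth, replicate 1 was 357.4-fold lower than the other M/M libraries for *Serpina3h* (95% exact interval 122.1 to 1734, counting error only) and 109.1-fold lower for *Serpina3i* (37.2 to 530.4). The ratio of *Serpina3h* to *Serpina3i* counts was between 2.64 and 3.84 in the 8 libraries that held more than 3 counts of each. Another 2 genes of the cluster were below the filter on low counts. *Serpina3e-ps* had the same pattern at a lower level. It was at 0.432, 0.273 and 0.496 CPM in wild-type, 0 counts in each KO library (at least 7.21-fold lower), 0.364, 0.510 and 0.577 CPM in I/M, and 0.0250, 0.629 and 0.609 CPM in M/M. *Serpina3f* averaged 0.153 CPM in wild-type, with 0 counts in KO (at least 2.76-fold lower), and was at 0.10, 0.520 and 0.485 CPM in M/M, so that replicate 1 lay within the wild-type range of 0.0840 to 0.198 CPM and the other 2 libraries above it. The 5 markers of the hepatocyte list, which holds *Serpina3k* of this cluster, summed to 0.273 to 0.634 CPM in wild-type and 0.0561 to 0.127 CPM in KO libraries, also with no overlap, and their part in these values was not tested.

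*Serpina3n*, 137356 bp beyond *Serpina3i* and encoding a secreted protease inhibitor of the same cluster, was also lower in KO libraries with no overlap, but it rose in the mutants. It averaged 0.675 CPM in wild-type and 0.191 CPM in KO (log2 fold change −1.82, SE 0.83, adjusted p = 0.268 by edgeR's quasi-likelihood test), and rose to 2.19 CPM in I/M (1.68, SE 0.47, adjusted p = 0.0155 by the same test) and 93.9 CPM in M/M (7.11, SE 0.35, adjusted p = 1.43e-09). M/M replicate 1 was the lowest of the M/M libraries, at 70.9 CPM against 113.7 and 97.1 CPM. *Serpina3g* had counts in M/M libraries only, at 0.713, 2.42 and 2.09 CPM, with its lowest value again in replicate 1. *Serpina3a*, *Serpina3b* and *Serpina3j* were at 0 counts in all 12 libraries. Of the serpin list, 9 of 38 genes were tested and 0 passed both thresholds in KO lenses, while *Serpinb6a* (0.55, SE 0.06, adjusted p = 6.22e-05) and *Serpinb6b* (0.73, SE 0.14, adjusted p = 0.0101) passed the FDR alone, with the list median at −0.05 against 0.00 for all tested genes.

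*Aox4* (ENSMUSG00000038242) encodes an aldehyde oxidase, a molybdenum cofactor enzyme that can oxidize retinaldehyde to retinoic acid, and lies on chromosome 1 from 58210397 to 58268597 on the forward strand. It was nearly silent outside the KO lenses, where it reached 7.72, 7.89 and 7.10 CPM. Wild-type libraries held 0.118, 0.147 and 0.139 CPM, I/M libraries 0.0135, 0.109 and 0.0432 CPM, and M/M libraries 1, 1 and 0 counts. The KO level was 55.6-fold above wild-type (log2 fold change 5.80, SE 0.24), on 378 to 435.98 estimated counts per library.

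Its neighbor *Aox2* went the other way. *Aox2* was below the filter on low counts, with 46, 33 and 36 counts in wild-type, 45, 41 and 31 in I/M, and 52, 55 and 39 in M/M libraries. KO libraries held 2, 3 and 2 counts, a level 17.9-fold below wild-type (95% exact interval 8.403 to 45.5 on the summed counts, counting error only). *Aox1* was at 0.127 CPM in wild-type and 0.155 CPM in KO (0.27, SE 0.52, adjusted p = 0.842 by edgeR's quasi-likelihood test), and rose to 5.24 CPM in M/M (log2 fold change 5.34, SE 0.29, adjusted p = 3.31e-09). *Aox3* held at most 5 counts in any library. Reads were not told apart between the *Aox* genes here beyond the authors' counting. Of the molybdenum cofactor list, 5 of 14 genes were tested and 0 passed in KO (median 0.07). Of the retinoid list, 13 of 27 were tested and 0 passed both thresholds (median −0.05), with *Stra6*, the retinol transporter, at −0.42 (SE 0.09, adjusted p = 0.0166) passing the FDR alone.

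**Figure D3:**
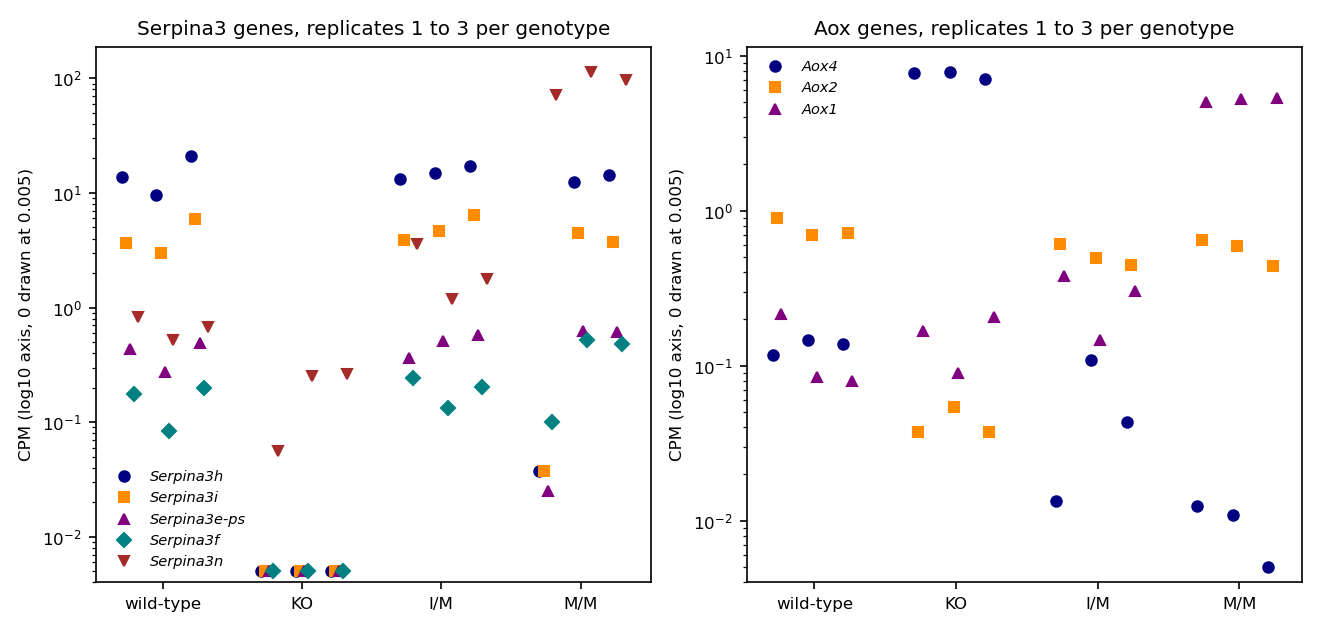
Levels of *Serpina3* genes (left) and *Aox* genes (right) in each library, in CPM on a log10 axis with 0 drawn at 0.005, in the order replicate 1 to 3 within each genotype. *Serpina3h*, *Serpina3i*, *Serpina3e-ps* and *Serpina3f* are at 0 in the KO libraries and lower in M/M replicate 1 than in replicates 2 and 3, and *Aox4* and *Aox2* exchange their order between KO and the other genotypes.

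*4833420G17Rik* (ENSMUSG00000062822) and *Tmem267* (ENSMUSG00000074634) are neighbors on chromosome 13, from 119462768 to 119486120 and from 119488039 to 119611059, 1918 bp apart on the forward strand, and both were higher in KO lenses. *4833420G17Rik* was at 1.65, 1.41 and 1.49 CPM in wild-type and at 8.28, 8.10 and 8.30 CPM in KO libraries, 5.42-fold higher (log2 fold change 2.44, SE 0.12). I/M libraries held 1.40, 1.65 and 1.17 CPM and M/M libraries 1.66, 1.77 and 1.86 CPM, so these genotypes stayed within 0.22 of wild-type on the log2 scale. *Tmem267*, a predicted transmembrane protein gene, was at 3.81, 5.06 and 3.35 CPM in wild-type and at 9.98, 12.4 and 18.3 CPM in KO, 3.33-fold higher (1.74, SE 0.21). It was at 2.47, 2.69 and 3.49 CPM in I/M and 2.51, 2.84 and 2.36 CPM in M/M. The KO libraries varied by 31.7% (SD over mean) for *Tmem267* but by 1.33% for *4833420G17Rik*.

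The genes on both sides of this pair did not share the difference. *Paip1*, 4549 bp before *4833420G17Rik*, was at 33.1 CPM in wild-type and 34.2 CPM in KO (log2 fold change 0.05, SE 0.05, adjusted p = 0.642 by edgeR's quasi-likelihood test). *Hmgcs1*, the cholesterol pathway synthase 79319 bp beyond *Tmem267*, was at 55.5 and 57.1 CPM (0.04, SE 0.07, adjusted p = 0.802). *Zfp131*, a zinc finger gene 154.1 kb from *Tmem267*, rose from 8.30 to 14.9 CPM (0.85, SE 0.07, adjusted p = 9.05e-06), which is under 2-fold. Genes on the opposite strand within the pair were low, with *3110070M22Rik* at 0.0532 CPM in wild-type and 0.471 CPM in KO, and *Gm9752* at 0.139 and 0.370 CPM. The strand of the reads is not given in the sources used here, so overlapping genes cannot be told apart from their reads.

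*C1qtnf1* and *Mettl23* lie 1.574 Mb apart on chromosome 11 and moved in opposite directions. *C1qtnf1* (ENSMUSG00000017446), from 118428203 to 118449963 on the forward strand, encodes the secreted C1q/TNF-related protein CTRP1. It was at 16.97, 18.3 and 11.0 CPM in wild-type and at 1.78, 1.81 and 1.77 CPM in KO libraries, 8.64-fold lower (log2 fold change −3.11, SE 0.18). I/M libraries held 17.2, 16.2 and 15.1 CPM, within the wild-type range, and M/M libraries held 20.1, 21.6 and 18.9 CPM, all above it. Its relatives *C1qtnf6* and *C1qtnf12* were at −0.07 and 0.04 on the log2 scale in KO, and neither passed the test. *Emilin1*, an elastic fiber protein with a C1q domain, passed the FDR alone, at 26.7 CPM against 31.9 CPM in wild-type (−0.26, SE 0.07, adjusted p = 0.0456 by edgeR's quasi-likelihood test). Of the C1q/TNF list 4 of 25 genes were tested and 0 passed both thresholds in KO (median −0.01). In M/M, *C1qtnf12* rose to 19.4 CPM from 6.54 CPM (1.57, SE 0.06, adjusted p = 8.18e-11 by edgeR's quasi-likelihood test) and *Emilin1* fell to 5.11 CPM (−2.64, SE 0.07, adjusted p = 9.45e-12).

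*Mettl23* (ENSMUSG00000090266), a protein arginine methyltransferase gene from 116843278 to 116854263 on the forward strand, had the smallest change of the 9. It was at 7.10, 7.98 and 7.73 CPM in wild-type and at 16.2, 16.5 and 17.04 CPM in KO libraries, 2.18-fold higher (1.12, SE 0.09). It was at 7.06, 7.50 and 6.60 CPM in I/M and 7.95, 7.33 and 6.02 CPM in M/M, both overlapping wild-type. The 3 genes that overlap *Mettl23* stayed close to their wild-type levels. *Jmjd6*, on the opposite strand, was at 17.9 and 19.8 CPM in wild-type and KO (0.15, SE 0.05, adjusted p = 0.140 by edgeR's quasi-likelihood test), the splicing factor gene *Srsf2* at 67.9 and 66.7 CPM (−0.02, SE 0.06, adjusted p = 0.874), and *Mfsd11* at 4.23 and 4.79 CPM (0.18, SE 0.11, adjusted p = 0.458). Of the methyltransferase list 17 of 35 genes were tested and 0 passed both thresholds in any of the 4 contrasts. By the FDR alone 10 of the 17 were lower and 1 higher in M/M (list median −0.32), where 62.7% of all tested genes passed the FDR and 31.4% did so in the lower direction.

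*Wdfy1* (ENSMUSG00000073643), on the reverse strand of chromosome 1 from 79702262 to 79776143, encodes an endosomal FYVE-domain protein that serves as an adaptor of Toll-like receptor signaling. It was at 9.34, 10.7 and 8.66 CPM in wild-type and 1.91, 2.44 and 2.55 CPM in KO, 4.16-fold lower (−2.06, SE 0.15). I/M libraries held 10.5, 8.03 and 11.4 CPM and M/M libraries 12.9, 11.0 and 11.5 CPM. Its paralogs *Wdfy2* (0.22) and *Wdfy3* (−0.01) did not pass the test in KO lenses. Of the list of WDFY and TLR3/TLR4-TRIF signaling genes 15 of 25 were tested, and 0 passed both thresholds in any contrast (median 0.03 in KO). By the FDR alone 0 of the 15 passed in KO, 2 in I/M and 3 in M/M, against 4.36%, 32.6% and 62.7% of all tested genes. Among the 3 in M/M was *Nfkb1*, a subunit of NF-κB (0.90, SE 0.11, adjusted p = 1.26e-05 by edgeR's quasi-likelihood test). The spindle list, fixed for *Misp*, had 17 of 25 genes tested and 0 past both thresholds in KO (median 0.04), with *Gpsm2*, a spindle orientation gene, at 70.97 CPM against 50.5 CPM in wild-type (0.49, SE 0.09, adjusted p = 0.00806 by edgeR's quasi-likelihood test). In M/M *Gpsm2* fell to 18.1 CPM (−1.48, SE 0.10, adjusted p = 2.53e-08) and moesin (*Msn*) rose to 73.7 from 16.2 CPM (2.18, SE 0.07, adjusted p = 1.84e-11).

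**Figure D4:**
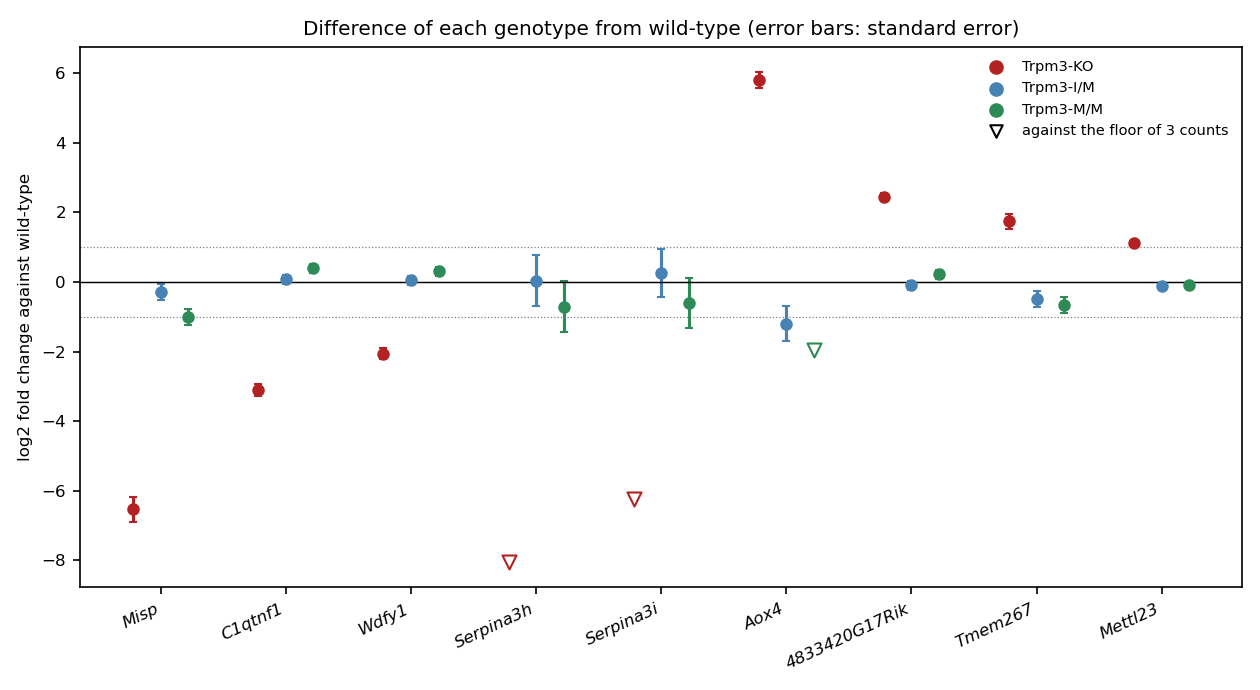
Log2 fold change of each gene against wild-type in KO, I/M and M/M lenses, with standard errors, from 1 fit over all genes. Open triangles are the wild-type level against the floor of 3 counts per library, and dotted lines mark 2-fold; the fitted KO values drawn run from −6.53 for *Misp* to 5.80 for *Aox4*, and the KO triangle of *Serpina3h* lies beyond *Misp*, at a bound of 265.6-fold.

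The only contrast that compared neither KO nor wild-type libraries was M/M against I/M. Its filter on low counts, TMM factors and variance still came from the fit to all 12 libraries. In it 1 of the 9 genes passed both thresholds, against 4.7% of all tested genes. That gene was *Aox4* (adjusted p = 0.0145 by edgeR's quasi-likelihood test), which was among the tested genes only through its KO libraries. With only the libraries compared it did not meet the filter, and 0 of the 9 were called. It held 2 counts in the 3 M/M libraries against 13 in I/M, a 7.51-fold difference with an exact 95% interval of 1.70 to 68.5, and was at least 1.60-fold lower when each M/M library is set at the floor of 3 counts. Without I/M replicate 2, which held 8.89 of those counts, the adjusted p was 0.198. *Misp* was 1.65-fold lower in M/M, with no overlap (−0.72, SE 0.22, adjusted p = 0.0159), and passed the FDR but not the fold threshold. With library size only, its value was −0.42 (adjusted p = 0.111), and over all alternatives it ranged from −0.91 to −0.42. Leaving out I/M replicate 1 or 2, or M/M replicate 2 or 3, gave *Misp* an adjusted p of 0.0510 to 0.0749. *4833420G17Rik* was 1.25-fold higher (0.32, SE 0.12, adjusted p = 0.0407, and 0.0564 to 0.167 without I/M replicate 1 or 3 or M/M replicate 2 or 3). Like *Aox4*, it was among the tested genes only through its KO libraries and did not meet the filter with only the libraries compared. *C1qtnf1* was also 1.25-fold higher with no overlap but missed the FDR (0.32, SE 0.13, adjusted p = 0.0507). *C1qtnf1* passed it, at an adjusted p of 0.000223 to 0.0497, under the replicate block, DESeq2, library size only, TMM without crystallin genes, no filter on low counts and only the libraries compared, and without M/M replicate 3 or wild-type replicate 2 or 3. Leaving out any other library raised it to at most 0.142. By the FDR alone 3 of the 9 passed, against 51.3% of all tested genes, and 4 of 9 had no overlap, against 60.5%. The 3 were *Misp*, and *Aox4* and *4833420G17Rik* with the limit given.

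For the other genes, the interval of the difference between M/M and I/M was narrow or wide as their libraries were. The 95% intervals here use a normal approximation and are narrower than the quasi-likelihood test would give. They are not adjusted over genes, so an interval without 0 is not a call. *Mettl23* had a log2 difference of 0.01 (95% interval −0.17 to 0.18, adjusted p = 0.962 by edgeR's quasi-likelihood test) and *Wdfy1* one of 0.25 (0.01 to 0.48, adjusted p = 0.111). *Tmem267*, also tested only through its KO libraries, had one of −0.16 (−0.60 to 0.29, adjusted p = 0.584). *Serpina3h* differed by −0.74 (−2.16 to 0.69, adjusted p = 0.425) and *Serpina3i* by −0.85 (−2.18 to 0.49, adjusted p = 0.322), and without M/M replicate 1 these values were −0.14 and −0.27 (adjusted p = 0.643 and 0.434).

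Against wild-type, I/M lenses had 0 of the 9 genes past both thresholds, where 3.33% of all tested genes passed, and 1 of 9, *Aox4*, was lower with no overlap, against 44.6% of all. Its 3 I/M libraries held 12.89 estimated counts in all against 19.83 in wild-type. In M/M lenses 2 of the 9 passed, *Misp* and *Aox4*, both lower, against 8.95% of all tested genes (2.53% lower), and 6 of 9 had no overlap, against 65.2%. *Misp* sat at the fold threshold there, and with library size only its value was −0.52. *Aox4* was at the floor in M/M, with 2 counts against 19.83 in wild-type, and at least 3.89-fold lower. *Aox4*, *Tmem267* and *4833420G17Rik* were among the tested genes only through their KO libraries, so nothing is read from these counts of the 9 against the shares. In M/M, *Tmem267* was at −0.66 (SE 0.23), *C1qtnf1* at 0.39 (SE 0.13) and *Wdfy1* at 0.30 (SE 0.13) on the log2 scale, with no overlap and of the opposite sign to KO, but *Wdfy1* did not pass the FDR (adjusted p = 0.0527 by edgeR's quasi-likelihood test). These contrasts share the wild-type libraries with the choice of the genes and are given as descriptions. Against I/M and M/M libraries in place of wild-type, the 9 genes kept their KO direction with no overlap, while 52.4% and 70.9% of all tested genes had no overlap. These 2 contrasts reuse the KO libraries that chose the genes, so nothing is read from that count.

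Levels between genes are compared per kilobase of annotated exon. In wild-type lenses *Misp* led at 18.03 CPM per kb, followed by *Serpina3h* at 10.3, *C1qtnf1* at 4.93 and *Mettl23* at 2.82 CPM per kb. *Serpina3i* was at 1.88, *Wdfy1* at 1.48, *Tmem267* at 0.752, *4833420G17Rik* at 0.310 and *Aox4* at 0.0160 CPM per kb. In KO lenses *Mettl23* led at 6.15 CPM per kb, followed by *Tmem267* at 2.50, *4833420G17Rik* at 1.69 and *Aox4* at 0.899 CPM per kb. The filter on low counts used CPM by library size alone, without the TMM factors of the CPM printed here, and asked for 5 in at least 3 libraries. *Tmem267*, *4833420G17Rik* and *Aox4* reached it through the KO libraries only, so they were tested because they were high there. *Serpina3i* reached it in exactly 3 libraries on that scale, 1 each of wild-type, I/M and M/M.

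Genes within 1 Mb of a member were taken by position alone, 123 tested genes in all, to see whether the KO differences extended along the chromosome. Genes below the filter on low counts are not among them. Those left out include *Aox2* near *Aox4*, and *Serpina3e-ps* and *Serpina3f* near *Serpina3h*, all lower in KO lenses as given above. The shares that follow do not cover such genes. In KO lenses 1 of the 123 passed both thresholds (0.813%, against 0.568% of all tested genes). It was *Slc26a11*, an anion transporter gene 905.6 kb from *C1qtnf1*, which rose from 2.77 ± 0.819 to 7.13 ± 1.36 CPM (SD, n = 3, log2 fold change 1.36, SE 0.20, adjusted p = 0.00113 by edgeR's quasi-likelihood test), while *C1qtnf1* was lower. *Slc26a11* met the filter through the 3 KO libraries only and was not tested when 1 of them was left out. By the FDR alone 12 of 123 passed, 9.76% against 4.36% of all tested genes, with 8 higher and 4 lower. Besides *Zfp131*, those higher included *Nif3l1* (0.70, SE 0.09, adjusted p = 0.000386) and *Ppil3* (0.58, SE 0.08, adjusted p = 0.000919), 176.6 and 162.4 kb from *Aox4*. Those lower were *Plk5* near *Misp* (−0.60), *Syngr2* (−0.52), which lies between *Mettl23* and *C1qtnf1*, *Galk1* (−0.34) and *Tbc1d16* (−0.25). The median over the 123 was 0.029.

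Of the nearest tested genes, 1 outside the members themselves passed the FDR in KO lenses. It was *Acsl3*, a fatty acid activating enzyme 994.5 kb from *Wdfy1* (0.25, SE 0.06, adjusted p = 0.0345 by edgeR's quasi-likelihood test). *Cant1* and *Engase*, 9116 and 26865 bp to either side of *C1qtnf1*, were at −0.10 (SE 0.06) and 0.02 (SE 0.08). *Bzw1*, 124.3 kb from *Aox4* with the untested *Aox2* between them, was at 0.17 (SE 0.05). *Serpine2*, 18053 bp from *Wdfy1*, was at 0.06 (SE 0.48). None of these genes passed the test in KO lenses (adjusted p from 0.106 to 0.967 by edgeR's quasi-likelihood test). *Serpine2*, a protease nexin gene, rose in the mutants instead, from 0.147 CPM in wild-type to 0.759 CPM in I/M and 10.4 CPM in M/M (6.12, SE 0.25, adjusted p = 2.31e-10). Neighbors past both thresholds numbered 4 of 123 in I/M (3.25%, against 3.33% of all tested genes), 15 in M/M (12.2%, against 8.95%) and 9 in M/M against I/M (7.32%, against 4.7%).

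**Figure D5:**
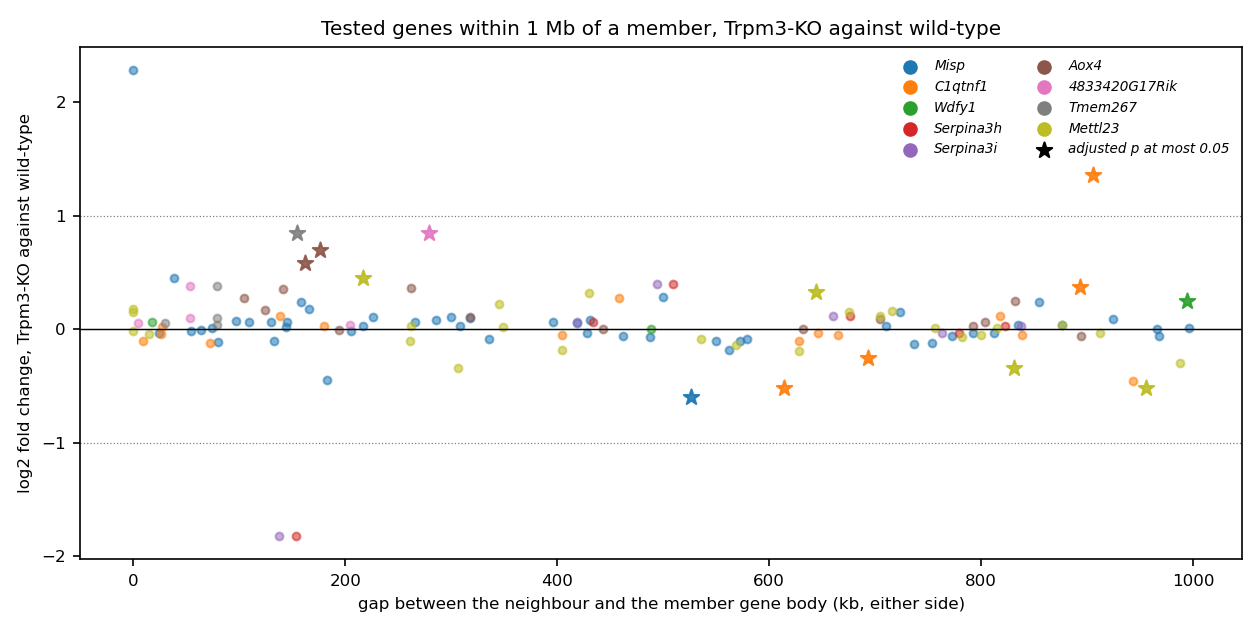
Log2 fold change in KO against wild-type lenses (y axis) of tested genes within 1 Mb, by their gap in kb from the body of each of the 9 genes (x axis, colors). A gene near 2 of them is drawn for each, stars have adjusted p ≤ 0.05, and dotted lines mark 2-fold; *Slc26a11* is the star above the upper line, and *Palm* is the point at 2.28.

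Over the 12 libraries, the genes with the pattern most like each member, by Pearson's r of log2 CPM and with no test, were often other genes that stand apart in KO lenses. *Wdfy1* and *C1qtnf1*, on chromosomes 1 and 11, were most like each other (r = 0.984), and *Serpina3h* and *Serpina3i* were too (r = 0.999). *Misp* was most like *Rpsa-ps10* (r = 0.987), a pseudogene on chromosome 3 that went from 451.1 to 14.9 CPM. *Mettl23* and *4833420G17Rik* were most like *Rpl15-ps2* (r = 0.988 for each), a pseudogene on chromosome 9 that went from 0.324 to 43.5 CPM. *Aox4* was most like *Gm3375* (r = 0.980), and *Tmem267* was most like *Aox4* (r = 0.959). The points share the 3 KO libraries that set both the choice and the pattern, and in the 9 other libraries *Serpina3h* and *Serpina3i* kept r = 0.996, while *Wdfy1* and *C1qtnf1* had r = 0.614. There *Misp* with *Rpsa-ps10* had r = 0.560, *Mettl23* with *Rpl15-ps2* 0.764, *4833420G17Rik* with *Rpl15-ps2* 0.307, *Aox4* with *Gm3375* 0.833 and *Tmem267* with *Aox4* 0.758.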

How the data were processed

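Total lens RNA was poly-A selected and sequenced in 12 libraries, grouped by the genotype in their labels. The authors aligned and quantified reads with DRAGEN against Ensembl release 101 (mm10) and deposited estimated counts per gene, unpooled and not normalized, of which 88.4% were whole to within 1e-09 (71.8% of those above 0). A second table repeats these counts for part of the genes, was found equal in all 12 libraries and was used as a check only. Its CPM columns were not used, nor were columns of their own comparisons, which hold log2 fold changes, a log2 mean CPM, p-values and adjusted p-values. Repeated entries of 168 identifiers held equal values and were used once. Counts were rounded, and genes with CPM ≥ 5 (by library size alone) in at least 3 libraries were kept. edgeR 4.0.16 (R 4.3.3) fitted all 12 libraries with TMM factors (0.828 to 0.905 in wild-type, 0.881 to 0.935 in KO, 1.00 to 1.01 in I/M and 1.22 to 1.27 in M/M) and genotype as the only factor, with the quasi-likelihood test and Benjamini–Hochberg adjustment over all 8984 genes per contrast. Standard errors came from the fold change and the F statistic, and 95% intervals of fitted differences took them with a normal approximation. A count of 0 allows up to 3 counts per library; floors and exact 95% intervals cover counting error only. Coordinates and exon lengths are from GENCODE M21 (GRCm38), which held 55227 of the identifiers. The procedure was tested on simulated data.

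The members and the gene lists were chosen with earlier results of these data known. Genes named are the 9 members, *Trpm3*, the 3 genes most like each member, neighbors within 1 Mb that were called in KO and the nearest tested genes, family paralogs, list genes called in a contrast (at most 3 per list and contrast), and the largest KO changes outside chromosome 19, of which a few are given to place the members. Other genes named, such as neighbors that passed the FDR alone, *Xist* and the lens and other markers, were chosen after their values were seen or as marker lists. Replicates are separate libraries by their labels, and nothing further says how their pools were drawn, so p-values measure the spread between these libraries. Alternatives were library size only, upper-quartile factors, TMM without the crystallin genes, DESeq2 1.42.0, other filters on low counts, only the libraries compared, the replicate number as a block, no fold change threshold, each library left out in turn, windows of 250 kb and 5 Mb, and Spearman in place of Pearson correlation. Some genes that this rule names are not reported here.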

Additional observations from a re-analysis of the deposited data

How the results depend on the processing

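Direction held for all 9 genes in KO against wild-type in every alternative in which they passed the filter, and no called value changed sign in any contrast. The KO and wild-type libraries chose these genes, so their KO direction, counts and adjusted p given here are descriptions and carry no test. Leaving out 1 library gave 4 to 9 of the 9 genes called in KO, 0 to 1 in I/M, 1 to 2 in M/M and 0 to 1 in M/M against I/M. Without any 1 KO library, 6 of the 9 passed the filter and 4 were called (*Misp*, *Wdfy1*, *C1qtnf1* and *Mettl23*), since *Tmem267*, *4833420G17Rik* and *Aox4* then met it in 2 libraries. *Serpina3h* and *Serpina3i* then had adjusted p of 0.0572 to 0.0619 and 0.0631 to 0.0690, with all their KO counts still at 0. The 1 member called in M/M against I/M became 0 with only the libraries compared and 3 with no fold change threshold. The 2 in M/M became 1 with library size only and 1 with only the libraries compared. Neighbors called, left out 1 library at a time, numbered 0 to 2 in KO, 2 to 5 in I/M, 5 to 16 in M/M and 1 to 10 in M/M against I/M; list genes 0, 4 to 7, 9 to 17 and 5 to 11; all genes 36 to 56, 198 to 307, 527 to 831 and 181 to 438. In the same order of contrasts, no fold change threshold gave 12, 39, 74 and 57 neighbors, 5, 24, 48 and 48 list genes, and 392, 2929, 5637 and 4608 of all genes. No filter on low counts gave 10, 19, 45 and 28 neighbors, 6, 16, 40 and 28 list genes, and 343, 1215, 3455 and 2335 of all genes, on more genes tested and with far smaller p-values. CPM of at least 1 gave 8 neighbors in I/M and 23 in M/M, 1, 11, 25 and 17 list genes, and 103, 663, 1634 and 1009 of all genes. DESeq2 gave 2 neighbors and 1 list gene in KO. Library size only gave 23 neighbors and 1354 of all genes in M/M, where it moved the median of all genes by 0.504 (0.2 in I/M and 0.049 in KO). Only the libraries compared gave 2 neighbors and 178 of all genes in I/M. A window of 250 kb held 0 called neighbors in KO, 2 in I/M and 9 in M/M, and a window of 5 Mb held 8 in I/M, 26 in M/M and 16 in M/M against I/M. Of the 27 most like genes, 3 stayed with Spearman's rho and 2 with the KO libraries left out. The causes were not tested beyond the number of genes, libraries or positions that each alternative sets. Replicate numbers did not pair the libraries: of 18 same-numbered pairs 2 had a correlation of deviations over 0.1 (−0.264 to 0.149), and 2 of 12 libraries were closest to their own number. With the replicate number as a block, 1 member was still called in M/M against I/M, *C1qtnf1* had adjusted p = 0.0204 and *4833420G17Rik* 0.0594, and no count of calls moved by over 1.5 times. Depth limits *Aox4* outside KO lenses, *Aox2* and the *Serpina3* genes at 0, which rest on few counts.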

Other observations

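Of the 80 tested genes of the lists around the 9 members, 0 passed both thresholds in KO lenses (against 0.568% of all tested genes), 6 in I/M (against 3.33%) and 15 in M/M (against 8.95%). The methyltransferase list and the list of WDFY and TLR signaling genes had 0 called in each. Among retinoid genes, the retinol dehydrogenase *Rdh10* went from 2.38 CPM in wild-type to 6.11 CPM in M/M (log2 fold change 1.36, SE 0.13, adjusted p = 9.56e-07 by edgeR's quasi-likelihood test), and *Dhrs3*, which reduces retinaldehyde, from 1.80 to 6.33 CPM (1.82, SE 0.12, adjusted p = 3.57e-08). *Stra6* fell from 14.9 to 6.78 CPM (−1.14, SE 0.09, adjusted p = 1.74e-07).

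Among serpins, *Serpinb6b* was higher in I/M (2.62, SE 0.13, adjusted p = 7.74e-09 by edgeR's quasi-likelihood test) and in M/M (1.91, SE 0.13, adjusted p = 3.47e-08). *Serpind1* was lower in M/M (−1.84, SE 0.12, adjusted p = 2.87e-08 by the same test). Endothelial and fibroblast markers were also higher in these lenses, at 73.2 to 89.3 CPM for the pericyte and fibroblast list in wild-type and 250.8 to 382.9 CPM in M/M libraries, and their part in these list genes was not tested. *Caprin2*, of the C1q/TNF list, was lower in M/M than in I/M lenses (−1.18, SE 0.11, adjusted p = 2.41e-06), and *Racgap1*, a cytokinesis gene of the spindle list, was higher in M/M than in wild-type lenses (1.31, SE 0.09, adjusted p = 5.18e-08).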
